A study of Mus musculus with 6 samples.

Results

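Col1a1, Col1a2, Col3a1, Dcn, Ogn, Slc6a13 and Lum are genes known from the fibroblasts of the meninges, the connective tissue sheets that cover the brain and follow its larger vessels. They were chosen by symbol from the 23282 entries of the count tables, and all 7 were found and passed the filter that left 15239 genes for testing. The tissue was 1 hemisphere of the forebrain, without olfactory bulb and cerebellum, of male C57BL/6J mice of 8 to 10 weeks, none of which carried a named genetic change. In the water avoidance stress (WAS) group, 3 mice spent 1 h on a small platform surrounded by water in a basin, and in the control group 3 mice spent 1 h on the same platform in a basin without water. Each mouse gave 1 library of 3′ end reads. The 3 libraries labelled WAS held 9248520 to 10067053 counted reads (median 9983648) and the 3 labelled control 9977945 to 10502029 (median 10380483), so depth differed little between the groups. The group of each library was taken from its label. Libraries labelled WAS had a count column whose heading opened with the letters WC, control libraries one with WS, and neither abbreviation was explained, so the labels may be exchanged, and which libraries came from the stressed mice is not settled here. Each direction rests on the labels alone and would turn if they were exchanged. Below, WAS and control mean the libraries so labelled.

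Fibroblasts build the collagen scaffold of the meninges and of the space around penetrating vessels. Type I collagen is made of chains encoded by Col1a1 and Col1a2, and type III collagen of the chain encoded by Col3a1. These chains join in a triple helix, are secreted and are trimmed and assembled into fibrils outside the cell. Decorin (Dcn), osteoglycin (Ogn) and lumican (Lum) belong to the small leucine-rich proteoglycans, secreted proteins that bind collagen fibrils and shape their spacing, and decorin also binds transforming growth factor beta. Slc6a13 encodes GAT2, a membrane transporter for GABA and taurine found in the leptomeninges. The genes are therefore known as markers of the same cells, but they encode a scaffold, its organizers and a transporter. In tissue of this kind, fewer cells of a type and less RNA per cell cannot be told apart.

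In the annotation of build mm10, all 7 genes lie on the plus strand. Col1a1 lies at chr11:94936224-94953042, Col1a2 at chr6:4504814-4541544, Col3a1 at chr1:45311538-45349706 and Slc6a13 at chr6:121300227-121337733. Dcn at chr10:97479609-97518143 and Lum at chr10:97565128-97572703 are neighbours, 46984 bases apart, and Kera and Epyc, further genes of the proteoglycan family, follow them. Ogn at chr13:49608046-49624501 stands beside Omd, Aspn and Ecm2, and Col3a1 beside Col5a2. No annotated gene shared a stretch of 50 bases with the last 500 bases of any of the 7 transcripts, where 3′ end reads fall. The end of Ogn overlaps Cenpp on the opposite strand, and whether the counting used strand is not given in the sources used here, so reads of these genes may have been mixed.

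The promoter windows of Col1a2, Col3a1, Ogn and Slc6a13 are shown because these genes mark the same cell type and are those of the 7 that the promoter table held. Each window is the RefSeq sequence of build GRCm38.p6 from 250 bases before to 50 bases after the annotated start, on the plus strand. Capitals mark the CCAAT box (letters CCAAT), the TATA box (letters TATAAA) and the GC box (letters GGGCGG), each on either strand, so that a CCAAT box on the opposite strand shows as its reverse complement. The windows were chr6:4505368-4505667 for Col1a2, chr1:45311288-45311587 for Col3a1, chr13:49607765-49608064 for Ogn and chr6:121300038-121300337 for the first of the 3 Slc6a13 starts.
Col1a2: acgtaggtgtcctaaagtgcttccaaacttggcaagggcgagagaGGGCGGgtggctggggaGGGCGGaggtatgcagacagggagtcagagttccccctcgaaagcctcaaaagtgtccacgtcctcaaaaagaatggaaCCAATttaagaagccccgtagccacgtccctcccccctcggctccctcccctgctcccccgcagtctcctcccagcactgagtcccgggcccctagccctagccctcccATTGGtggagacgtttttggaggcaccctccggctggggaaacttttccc
Col3a1: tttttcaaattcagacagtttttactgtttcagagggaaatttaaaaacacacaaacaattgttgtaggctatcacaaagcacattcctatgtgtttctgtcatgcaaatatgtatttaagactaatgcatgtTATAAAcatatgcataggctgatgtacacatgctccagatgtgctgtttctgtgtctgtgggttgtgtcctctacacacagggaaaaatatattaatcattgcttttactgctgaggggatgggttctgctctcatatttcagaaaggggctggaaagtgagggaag
Ogn: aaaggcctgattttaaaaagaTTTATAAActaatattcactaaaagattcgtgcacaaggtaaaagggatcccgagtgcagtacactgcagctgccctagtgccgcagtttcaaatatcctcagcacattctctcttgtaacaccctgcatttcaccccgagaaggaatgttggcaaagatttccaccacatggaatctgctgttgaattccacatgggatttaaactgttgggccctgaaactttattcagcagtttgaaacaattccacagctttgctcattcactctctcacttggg
Slc6a13: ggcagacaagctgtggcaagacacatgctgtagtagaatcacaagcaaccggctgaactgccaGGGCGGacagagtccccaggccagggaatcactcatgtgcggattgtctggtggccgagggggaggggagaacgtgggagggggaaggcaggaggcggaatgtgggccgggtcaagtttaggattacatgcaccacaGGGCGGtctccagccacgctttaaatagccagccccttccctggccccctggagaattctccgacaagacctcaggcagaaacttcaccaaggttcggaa

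No box of the 3 stood in all 4 windows. The Col1a2 window held the CCAAT box in 2 places and the GC box in 2, the Slc6a13 window held the GC box in 2 places, the Col3a1 window held the TATA box once and the Ogn window held it in 2 overlapping readings of opposite strand. Among all 32851 promoter windows of the same length, 37.4% held the CCAAT box, 13.6% the TATA box and 35.7% the GC box. TGACTCA, the letters read by AP-1, was looked for on both strands and stood in 5.2% of all windows, and AGAACA, part of the site read by the glucocorticoid receptor, in 19.0%. Neither was in the 4 windows shown, which says only that those letters are absent there. Of the other Slc6a13 starts, both windows held the CCAAT box and the third also held AGAACA. Col1a1, Dcn and Lum are named without a window.

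The levels of the 7 genes spanned a wide range. Levels are given as CPM, reads scaled to a common library total after TMM scaling. They are not divided by gene length, because a 3′ end library reads the end of each transcript. Over the 6 libraries, Col1a2 had the highest mean, 47.4 ± 11.1 CPM (SD, n = 6), followed by Dcn with 32.9 ± 19.9, Col1a1 with 11.0 ± 2.46, Ogn with 5.60 ± 1.75, Col3a1 with 4.78 ± 1.34, Slc6a13 with 4.42 ± 1.52 and Lum with 1.40 ± 0.516. Dcn was above Col1a1, Col1a1 above Ogn, and Slc6a13 above Lum in 6 of 6 libraries. Col1a2 was above Dcn in 5 of 6, the exception being WAS replicate 1. Ogn, Col3a1 and Slc6a13 lay within each other's spread. The lowest count of any member was 6 reads, for Lum, where counting alone gives a relative error of 40.8%, while the highest count of Col1a2 carries 4.15%. Such errors cover counting only.

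The comparison of WAS with control asked whether an hour of acute psychological stress changed these transcripts. The mean fold change was above 1 for 7 of the 7 genes, from 0.17 for Col1a2 to 1.23 for Dcn on the log2 scale, with a median of 0.57. Without control replicate 2 that median was 0.29. Across all genes tested, the median log2 fold change was 0.00088 and 50.2% of the values were positive. None of the 7 passed an adjusted p of 0.05 in edgeR's quasi-likelihood test. Of all 15239 genes 0.0% passed, the smallest adjusted p being 0.477, while 1104 genes had an unadjusted p under 0.05. DESeq2 called 22 genes at an adjusted p of 0.05 and limma on quantile-normalized counts called 0, and no gene of the 7 was among the 22. By looser criteria (a fold change of 1.5 or more with p under 0.05 before adjustment), Dcn and Slc6a13 were higher in the libraries labelled WAS. With the labels exchanged, the same values would make both genes lower after stress, so no direction of a stress response is drawn from them. Those criteria were met by 2.49% of all genes tested, and by 1.82% in the direction of WAS. For Slc6a13 and Lum the 3 WAS libraries lay above the 3 control libraries, as they did for 6.12% of all genes (11.7% when either direction is counted). An exact permutation test of 3 against 3 libraries cannot give a p under 0.1.

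**Figure D1:**
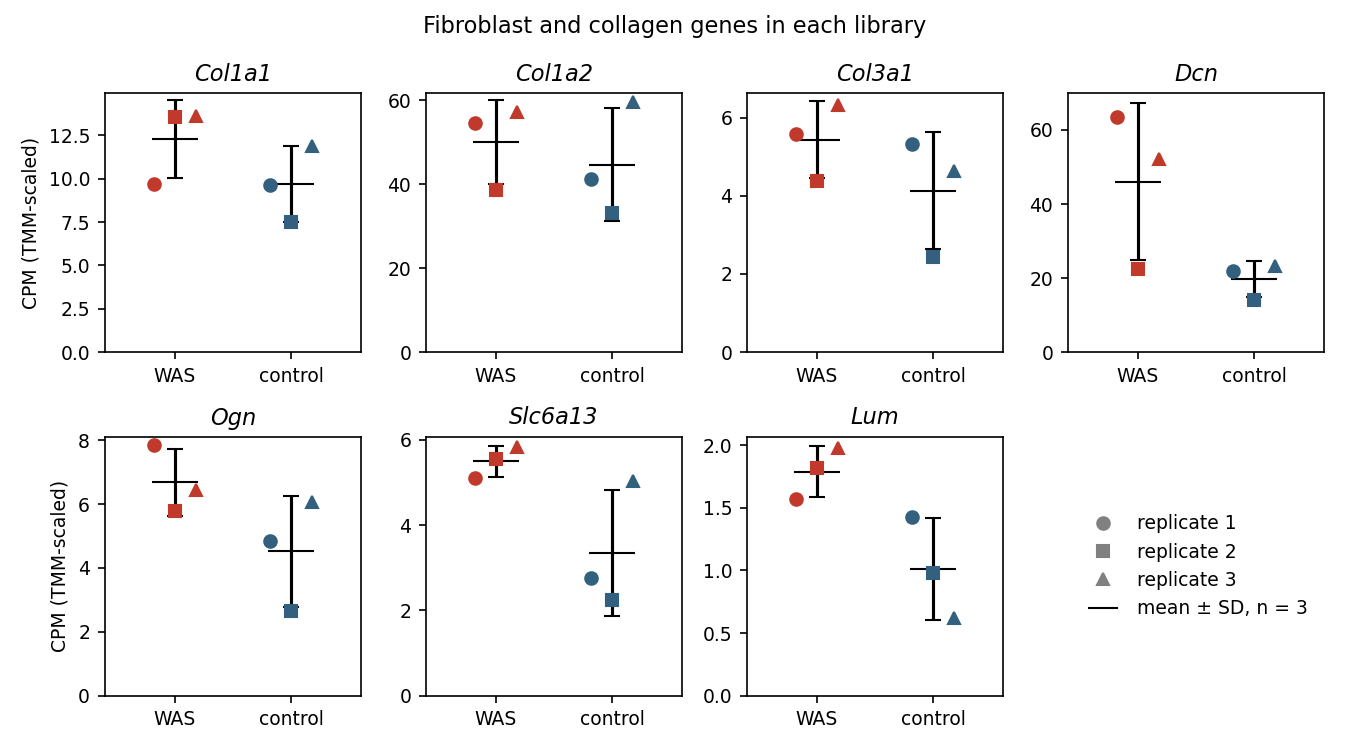
Level of each gene in CPM (TMM-scaled, vertical axes from 0) in the 3 libraries labelled WAS and the 3 labelled control. Points are libraries, shaped by replicate number, and bars show mean ± SD. The WAS points stand above the control points in Slc6a13 and Lum, and in Dcn WAS replicates 1 and 3 stand far above the other 4 libraries.

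The fibrillar collagen chains showed the smallest differences. Col1a1, one chain of type I collagen, measured 9.70, 13.6 and 13.7 CPM in WAS replicates 1, 2 and 3 and 9.62, 7.53 and 11.9 CPM in control replicates 1, 2 and 3. WAS replicate 1 lay with the controls and control replicate 3 among the higher values, so the groups overlapped. Its log2 fold change was 0.35 ± 0.22 (SE, unadjusted p = 0.136, adjusted p = 0.797, edgeR). It was 0.19 without control replicate 2 and 0.52 without control replicate 3.

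Col1a2, the partner chain, measured 54.5, 38.6 and 57.3 CPM in the WAS libraries and 41.2, 33.3 and 59.7 CPM in the control libraries. The highest value of all was a control library, replicate 3, and replicate 2 was the lowest in each group. The group means of 50.1 ± 10.1 and 44.7 ± 13.5 CPM (SD, n = 3 each) differed by less than their spread, with a log2 fold change of 0.17 ± 0.20 (adjusted p = 0.927, edgeR). With 1 library left out this value ran from -0.0075, without control replicate 2, to 0.43, without control replicate 3.

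Col3a1, the chain of type III collagen, measured 5.59, 4.38 and 6.33 CPM in WAS and 5.33, 2.45 and 4.62 CPM in control. Control replicate 2 was alone at the low end, and the other controls overlapped with WAS. The log2 fold change was 0.40 ± 0.31 (adjusted p = 0.863, edgeR). It was 0.13 without control replicate 2 and 0.62 without control replicate 1.

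Both type I chains are known to be made in step, as the helix holds them in a fixed proportion. Reads of Col1a2 were 5.62, 2.84 and 4.20 times those of Col1a1 in the WAS libraries and 4.29, 4.42 and 5.01 times in the control libraries. The ratio varied most among the WAS mice, and its group means of 4.22 ± 1.39 and 4.57 ± 0.385 gave an exact two-sided permutation p of 0.7 (Benjamini-Hochberg adjusted p = 0.817 over 7 ratios compared).

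Dcn differed most. It counted 647, 210 and 528 reads in WAS replicates 1, 2 and 3 against 229, 145 and 226 in control replicates 1, 2 and 3, or 63.4, 22.4 and 52.2 against 21.8, 14.2 and 23.2 CPM. WAS replicates 1 and 3 stood far above the other libraries, whereas WAS replicate 2 was level with control replicates 1 and 3, so the groups overlapped (exact permutation p = 0.2, two-sided, n = 3 each). The means were 46.0 ± 21.2 and 19.7 ± 4.86 CPM (SD), a 2.34-fold difference, or 1.23 ± 0.31 on the log2 scale (unadjusted p = 0.00229, adjusted p = 0.498, edgeR). Without WAS replicate 2 the adjusted p was 0.000156 at a log2 fold change of 1.55, and over all 13 alternatives it ran up to 0.9997. Leaving out WAS replicate 1 gave a log2 fold change of 0.92, and leaving out both it and control replicate 2 gave 0.73.

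Ogn, the second proteoglycan, measured 7.84, 5.77 and 6.43 CPM in WAS and 4.86, 2.64 and 6.06 CPM in control. Only control replicate 3 reached into the WAS range. The log2 fold change was 0.57 ± 0.30 (unadjusted p = 0.0872, adjusted p = 0.735, edgeR), just under the 1.5-fold criterion. It was 0.83 and met the criteria without control replicate 3, 0.29 without control replicate 2, and 0.16 without WAS replicate 1 and control replicate 2 together.

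Lum, the third, was the least abundant, with 16, 17 and 20 reads in WAS and 15, 10 and 6 reads in control, or 1.57, 1.82 and 1.98 against 1.43, 0.978 and 0.616 CPM. The groups did not overlap, though WAS replicate 1 and control replicate 1 differed by 1 read. The log2 fold change of 0.81 ± 0.45 had an unadjusted p of 0.0976 (adjusted p = 0.740, edgeR), and the exact permutation p was 0.1, the smallest that 3 against 3 allows.

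Slc6a13, the transporter, counted 52, 52 and 59 reads in WAS and 29, 23 and 49 in control, or 5.10, 5.56 and 5.83 against 2.76, 2.25 and 5.03 CPM. The WAS libraries lay close together, and control replicate 3 lay just beneath them and well above the other controls. The means were 5.50 ± 0.373 and 3.35 ± 1.48 CPM (SD, n = 3 each), a log2 fold change of 0.72 ± 0.32 (unadjusted p = 0.0449, adjusted p = 0.683, edgeR; exact permutation p = 0.1). The criteria were narrowly met. They were lost without WAS replicate 1, 2 or 3 or control replicate 1 or 2, with log2 fold changes of 0.77, 0.71, 0.67, 0.60 and 0.50, and without control replicate 3 the value was 1.13 and the criteria were met.

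**Figure D2:**
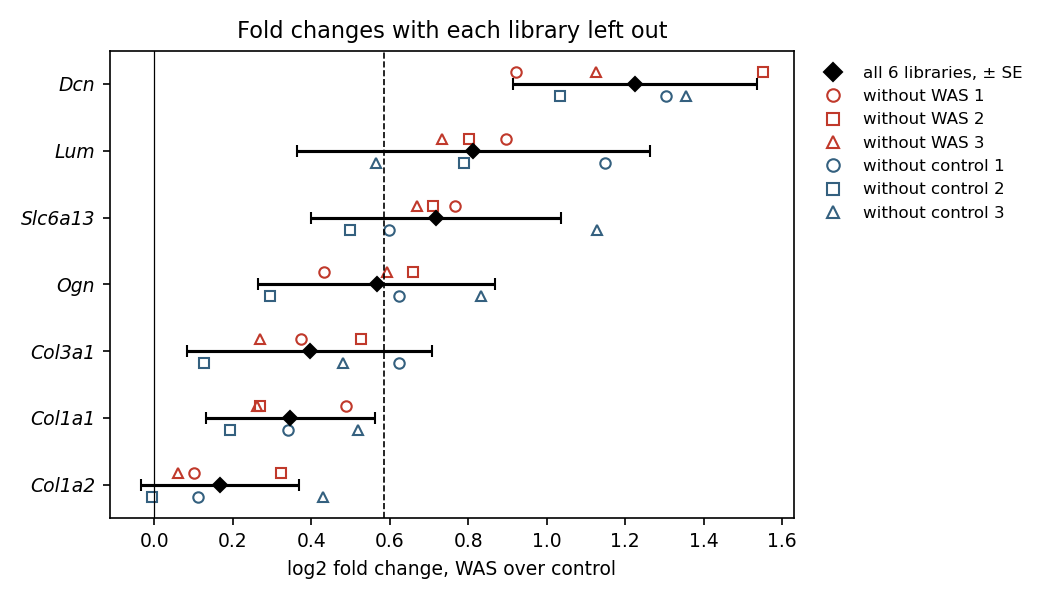
Log2 fold change of WAS over control for each gene. Black diamonds with bars are the estimate and its SE from all 6 libraries, open symbols the estimate with 1 library left out, the solid line marks 0 and the dashed line a fold change of 1.5. Dcn stays right of the dashed line throughout, at 0.92 or more, and Col1a2 reaches -0.0075 without control replicate 2.

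Control replicate 2 was the lowest library for 6 of the 7 genes, all but Lum. WAS replicate 3 was the highest for Col1a1, Col3a1, Slc6a13 and Lum, WAS replicate 1 for Dcn and Ogn, and control replicate 3 for Col1a2. Summed over the 7 genes, the WAS libraries held 147.7, 92.2 and 143.7 CPM and the control libraries 87.0, 63.3 and 111.1 CPM, and the groups overlapped. Without Dcn the sums were 84.3, 69.7 and 91.5 CPM in WAS and 65.2, 49.1 and 87.9 CPM in control, where the WAS mean was 1.21 times that of control. Dcn made up 42.9%, 24.4% and 36.3% of the reads of the 7 genes in the WAS libraries and 25.1%, 22.4% and 20.9% in the control libraries.

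**Figure D3:**
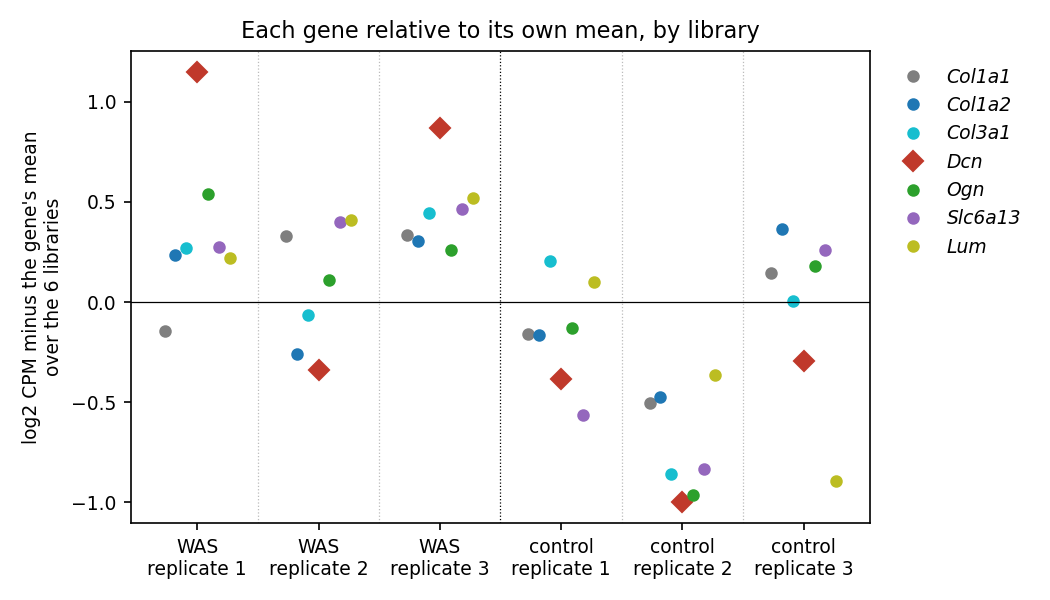
Log2 CPM of each gene minus its own mean over the 6 libraries, by library. Diamonds mark Dcn and circles the other 6 genes, and the horizontal line marks 0. In control replicate 2 every gene is below 0, and in WAS replicates 1 and 3 Dcn lies above the other genes, at 1.15 and 0.87.

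Relative to Col1a2, reads of Dcn were 1.16, 0.582 and 0.912 in WAS and 0.529, 0.427 and 0.389 in control, so each WAS library was above each control. Slc6a13 relative to Col1a2 was 0.0935, 0.144 and 0.102 in WAS and 0.0670, 0.0677 and 0.0843 in control, again without overlap. For each of these ratios the exact two-sided permutation p was 0.1, the smallest possible, and the adjusted p over 7 ratios was 0.35. The other 5 ratios compared had exact p between 0.3 and 0.9.

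Across the 6 libraries, 20 of the 21 pairs of genes had a Pearson r above 0 on log2 CPM, with a median of 0.68. The values ran from -0.071 for Col1a2 with Lum to 0.89 for Col3a1 with Ogn. Unadjusted permutation p was under 0.05 for 6 of 21 pairs, and no pair passed after adjustment. The smallest adjusted p, 0.0875, belonged to Col1a1 with Slc6a13 (r = 0.87, exact permutation p = 0.00417, Spearman rho = 0.94, p = 0.0167), with r = 0.64 when the 2 libraries farthest from the median were left out. Dcn and Ogn ranked the 6 libraries in the same order (rho = 1.0, exact permutation p = 0.00278, adjusted p = 0.0583 over 21 pairs; r = 0.82, p = 0.0125, adjusted p = 0.131), and r without the 2 farthest libraries was 0.99. After the mean of each group was subtracted, 15 of 21 pairs were above 0, with a median r of 0.50. Leaving out the 2 farthest libraries left 14 of 21 above 0, so for the rest the relation rested on those libraries. The pairs share libraries and scaling and are not independent of each other.

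The genes whose levels followed the mean of the 7 most closely, among 12885 other genes with a mean count of at least 20, were Ndrg1 (r = 0.99 over 6 libraries), Fgfr1op, St18, Fgfr1, Cpq, Carkd, Enho, Rhoj, Idh3b and Scn7a (r = 0.98). With 6 libraries such values are common, and 197 genes reached an r of 0.9. None of the 10 was in a list of fibroblast or collagen genes. For Dcn alone, 370 genes reached 0.9. The nearest were Acadsb, Tcf7l2 and Tnnt1, with r between 0.99 and 1.00, and Slc6a11 was seventh.

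Tcf7l2, a transcription factor strongly expressed in the thalamus, counted 2357, 388 and 1729 reads in WAS and 384, 214 and 383 in control, a log2 fold change of 2.20 ± 0.47. Like Dcn, it was high in WAS replicates 1 and 3 and lowest in control replicate 2. Slc6a11, the GABA transporter GAT3 of astrocytes, counted 2563, 1040 and 2205 reads in WAS and 1048, 869 and 1099 in control (log2 fold change 0.96 ± 0.23). A list of 10 genes known for expression in the thalamus, chosen after the values of Tcf7l2 had been seen, summed to 821, 341 and 685 CPM in WAS and 351, 332 and 340 CPM in control. Of that list 10 of 10 genes were above 0, with a median log2 fold change of 0.84, and 5 met the criteria (Tcf7l2, Prkcd, Slc17a6, Ntng1 and Plekhg1). Across all genes tested, 50.2% were above 0 and 2.49% met the criteria, 1.82% in the direction of WAS. The summed thalamus genes and Dcn were high in the same 2 libraries. The other 6 fibroblast genes summed to 87.9 CPM in control replicate 3, where the thalamus genes summed to 340 CPM, and to 84.3 CPM in WAS replicate 1, where they summed to 821 CPM. The part of tissue composition in the Dcn difference was not tested.

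**Figure D4:**
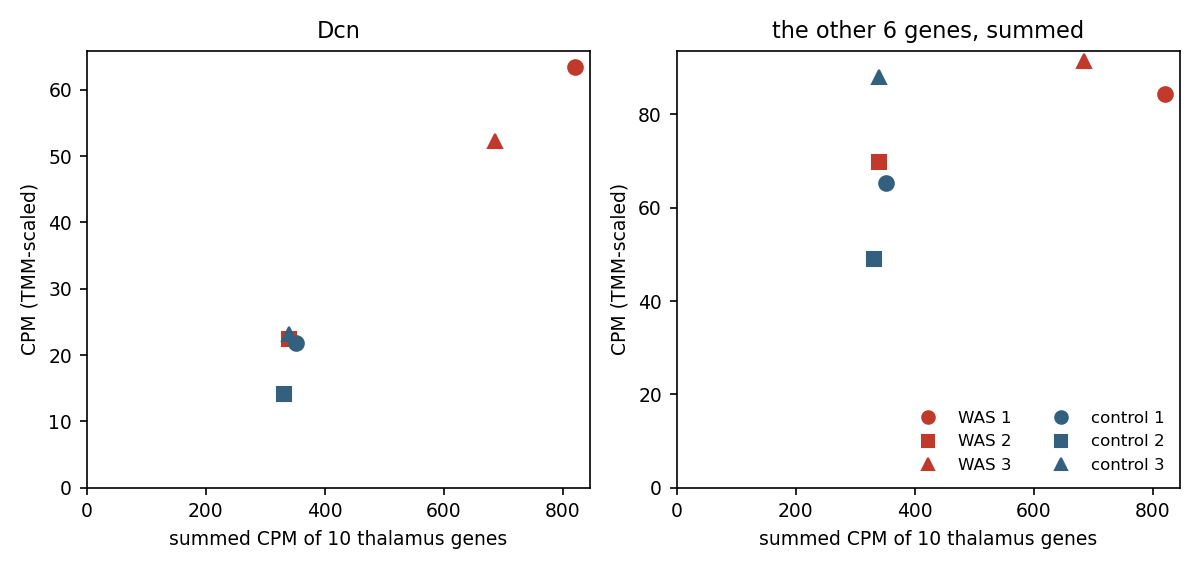
CPM of Dcn (left) and summed CPM of the other 6 genes (right) against the summed CPM of 10 thalamus genes, with 1 point for each library, coloured by group and shaped by replicate number. On the left, WAS replicates 1 and 3 lie apart from the other 4 libraries on both axes. On the right, control replicate 3 at 87.9 CPM stands level with them.

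The wider set of genes known to mark meningeal fibroblasts had a median above 0 too. Of 33 such genes, 29 were tested, of which 24 had a log2 fold change above 0 and 5 below, with a median of 0.29. None passed an adjusted p of 0.05, and the single gene to meet the criteria was lower in the libraries labelled WAS. This was Cemip, a protein that helps to break down hyaluronan, with 14, 17 and 28 reads in WAS and 46, 56 and 33 in control (log2 fold change -1.15 ± 0.35, unadjusted p = 0.00723, adjusted p = 0.539, edgeR), a direction that would likewise turn with the labels. For 7 of the 29 the WAS libraries lay above the control libraries (Aldh1a2, Slc22a8, Slc13a3, Lama1, Mgp, Cyp1b1 and Bmp7), and for 1 below. Across all genes tested, the WAS libraries lay above for 6.12%, and 11.7% did not overlap in either direction.

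The most abundant of these genes were Ptgds, a prostaglandin D synthase that oligodendrocytes also express, and Mgp, a matrix protein that binds calcium. Ptgds measured 2212, 1512 and 2418 CPM in WAS and 1619, 1203 and 1606 CPM in control, with WAS replicates 1 and 3 highest and control replicate 2 lowest (log2 fold change 0.47 ± 0.16, adjusted p = 0.585, edgeR). Mgp counted 758, 614 and 610 reads in WAS and 561, 499 and 526 in control (log2 fold change 0.36 ± 0.10, unadjusted p = 0.00521, adjusted p = 0.539, edgeR). Mgp did not overlap between the groups and did not reach a 1.5-fold change. Leaving out WAS replicate 3 took the median of the list to 0.16, the lowest over the alternatives, and none took it to 0 or less.

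The medians of the other collagen lists were nearer 0. Of 8 other fibrillar collagen genes 5 were above 0 and 3 below, with a median of 0.087. Col5a2, the neighbour of Col3a1 and a chain that joins type I fibrils, met the criteria with 35, 17 and 42 reads in WAS and 14, 15 and 21 in control (log2 fold change 0.93 ± 0.41, unadjusted p = 0.0431, adjusted p = 0.681, edgeR). Its partner Col5a1 had 175, 84 and 134 reads in WAS and 161, 127 and 108 in control, a log2 fold change of 0.022, and Col11a1 one of 0.15. All 6 basement membrane collagens were tested and none met the criteria. Their median was 0.088, and the abundant chains Col4a1 and Col4a2 had log2 fold changes of 0.15 ± 0.13 and -0.16 ± 0.18. Among 21 non-fibrillar collagens tested, 11 were above 0 and 10 below, with a median of 0.017, and Col23a1, a transmembrane collagen, met the criteria with 173, 90 and 174 reads in WAS and 74, 89 and 103 in control (log2 fold change 0.74 ± 0.24, adjusted p = 0.582, edgeR). The most abundant of that list, Col25a1 and Col19a1, had log2 fold changes of 0.32 ± 0.20 and -0.28 ± 0.18.

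Enzymes that modify, fold, trim and cross-link collagen chains were spread around 0. Of 25 tested, 16 were above 0 and 9 below, with a median of 0.090. P4ha3, a subunit of prolyl 4-hydroxylase, was the 1 gene to meet the criteria, with 52, 52 and 91 reads in WAS and 44, 35 and 44 in control (log2 fold change 0.70 ± 0.28, unadjusted p = 0.0308, adjusted p = 0.644, edgeR). The abundant P4hb and Colgalt1 had log2 fold changes of 0.13 and -0.16. Among collagen receptors and the enzymes of collagen breakdown with their inhibitors, 9 of 12 were above 0, none met the criteria, and the median was 0.29. Timp2, an inhibitor of matrix metalloproteinases, counted 8548, 5570 and 8247 reads in WAS and 5077, 5239 and 6397 in control (log2 fold change 0.44 ± 0.14, adjusted p = 0.565, edgeR), again with WAS replicates 1 and 3 highest, and Timp3 one of 0.15 ± 0.081.

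Small leucine-rich proteoglycans other than Dcn, Ogn and Lum did not differ by the criteria. Of 10 tested, 7 were above 0 and 3 below, with a median of 0.21. Bgn, the closest relative of decorin, had 136, 131 and 145 reads in WAS and 100, 116 and 144 in control (log2 fold change 0.23 ± 0.18), and Fmod a log2 fold change of 0.39 ± 0.23. The neighbours of Ogn, which were Omd, Aspn and Ecm2, had log2 fold changes of 0.12, 0.31 and 0.45, and Epyc beside Lum one of -0.65 ± 0.52. Kera, between Lum and Epyc, had 0 to 9 reads and was not tested. Ligands, receptors and targets of transforming growth factor beta, the signal that drives collagen synthesis in fibroblasts, had a median of 0.079. Of 12 tested, 8 were above 0 and none met the criteria. The largest log2 fold change was that of Tgfb2, a ligand, with 345, 188 and 303 reads in WAS and 206, 169 and 238 in control (0.47 ± 0.20, unadjusted p = 0.0368, adjusted p = 0.667, edgeR), and the receptors Tgfbr2 and Tgfbr3 stood at 0.44 ± 0.28 and 0.44 ± 0.23. Ctgf, a classical target, had 412, 856 and 1046 reads in WAS and 642, 879 and 757 in control (log2 fold change 0.065 ± 0.27), and Smad3, a signal carrier, had a log2 fold change of -0.043. Tgfb1 was listed at 0 in every library.

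Slc6a13 belongs to a family of 5 transporters of GABA and taurine, of which 3 were above 0 and 2 below, with a median of 0.074. Slc6a11, described above, met the criteria. Slc6a12, the gene next to Slc6a13, had 1 to 7 reads in each library, and Slc6a6, the taurine transporter and the most abundant, had a log2 fold change of -0.066 ± 0.11.

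**Figure D5:**
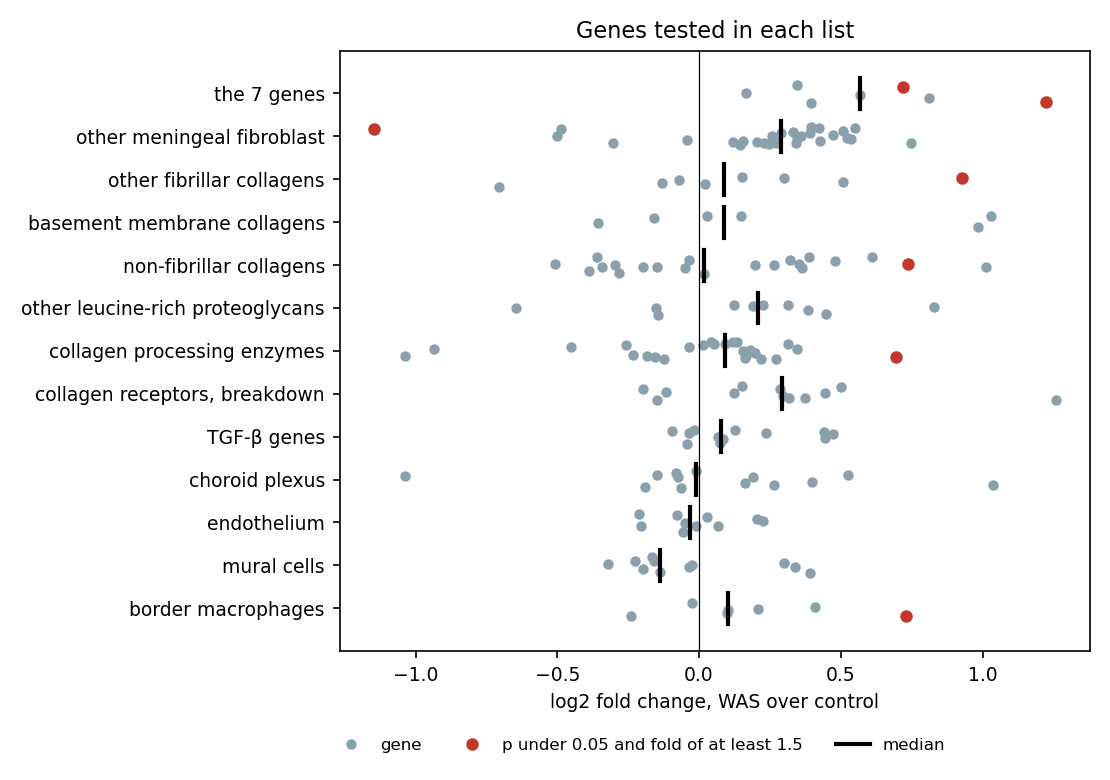
Log2 fold change of WAS over control for the tested genes of 13 lists. Each point is a gene, red where the criteria (unadjusted p of 0.05, 1.5-fold) were met, and the black bar is the list's median. The medians of the 7 genes (0.57) and of the other meningeal fibroblast genes (0.29) lie right of 0, as does that of collagen receptors and breakdown (0.29), and the other lists lie nearer 0.

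Other cells of the meninges, vessels and ventricles were followed through their markers. Endothelial markers, of which 4 of 10 were above 0, had a median of -0.031 and summed to 313 to 345 CPM in WAS and 322 to 356 CPM in control. Slc2a1 and Slco1a4, the most abundant, had log2 fold changes of -0.049 and 0.067. Mural cell markers, of which 3 of 11 were above 0, had a median of -0.14 and summed to 109 to 118 CPM and 105 to 117 CPM. Rgs5 stood at -0.036 and Vtn at 0.34 ± 0.12 on the log2 scale. Border macrophage markers, of which 5 of 7 were above 0, had a median of 0.10, and Pf4 met the criteria with 41, 38 and 34 reads in WAS and 32, 18 and 20 in control. Stab1 and Lyve1 had log2 fold changes of 0.21 and -0.027. Red cell genes, of which 7 of 7 were above 0 and several are near-identical copies, had a median of 0.36 and summed to 2409, 1887 and 3182 CPM in WAS and 1718, 1925 and 2310 CPM in control, with Hba-a1 at 0.27 and Hbb-bs at 0.36 on the log2 scale. Skeletal muscle genes, of which 2 of 4 tested were above 0, summed to 12.3 to 15.5 CPM and 11.7 to 19.7 CPM, with Acta1 at -0.033 and Mylpf at 0.24 on the log2 scale. The brain label held, as 7 of 7 neuronal markers were abundant, summing to 4919 to 5626 CPM in WAS and 5952 to 6478 CPM in control. Their log2 fold changes were below 0 for 6 of 7, with a median of -0.24. Rbfox3, Syt1 and Slc17a7 had unadjusted p of 0.00574, 0.00715 and 0.00454 (adjusted p of 0.539, 0.539 and 0.515, edgeR), with each WAS library below each control, and Snap25 had a log2 fold change of -0.26 ± 0.13. None met the criteria, and the median was -0.047 after quantile normalization.

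Choroid plexus markers split the libraries in another way. Their sum was 329, 1731 and 1390 CPM in WAS replicates 1, 2 and 3 and 1825, 316 and 1442 CPM in control replicates 1, 2 and 3, so that WAS replicate 1 and control replicate 2 were low. Ttr, the most abundant, counted 364, 10626 and 8874 reads in WAS and 12599, 114 and 9085 in control, and Enpp2 2707, 4731 and 4450 against 5742, 3022 and 4288. Ependymal markers were low in the same 2 libraries, at 16.1 and 13.1 CPM against 26.4 to 31.5 CPM in the other 4, and the log2 fold changes of Foxj1 and Rarres2 were 0.22 and 0.52. WAS replicate 1, low in both, had the second highest sum of the 6 fibroblast genes other than Dcn among the WAS libraries, whereas control replicate 2 had the lowest of all. Without these 2 libraries, a choice made after seeing the data, 1 of the 7 genes met the criteria (1.71% of all genes did), Dcn (log2 fold change 0.73, unadjusted p = 0.039, adjusted p = 0.975, edgeR), the median of the 7 was 0.33 and Col1a2 was at -0.077. The part of these libraries in the fibroblast result was not tested beyond these values.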

How the data were processed

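Counts per gene from 3′ end libraries (QuantSeq, single-end 75 bp reads) of 6 forebrain samples were analysed, 1 library per mouse and 3 per group. Per the study's methods, the authors used Bowtie2 for alignment and Bedtools for counting, keeping reads that aligned more than once, and the submitters' processing notes name build mm10. The annotation is not given in the sources used here. The deposited values were raw read counts. The authors' quantile normalization was not part of the files. Entries with a repeated symbol (35 symbols, none of the 7) were kept apart.

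Groups came from the sample labels. Genes with a mean log2 (quantile-normalized count + 1) of at least 2 were tested (15239). WAS was compared with control by edgeR 4.0.16 (TMM scaling, quasi-likelihood test, Benjamini-Hochberg adjustment over all genes tested, R 4.3.3), with SE taken as the log2 fold change over the square root of F. The common biological coefficient of variation was 14.0%. Depth was 9248520 to 10502029 reads, and no 2 libraries agreed within sampling noise. The looser criteria, after the study, took a 1.5-fold change and p under 0.05 before adjustment. Exact permutation tests (scipy 1.17.1, two-sided) were used for ratios, single genes and correlations. Standing beside these were total-count scaling, quantile normalization with limma 3.58.1, DESeq2 1.42.0, other filters on low counts, a replicate block and each library left out.

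Named genes were the 7, every listed gene that met the criteria, listed genomic neighbours, and the 10 genes most like the mean of the 7. From each list except the thalamus list, the 2 highest in mean CPM were named too. Genes named beyond this rule, the thalamus list and the likeness to Dcn alone were chosen after values were seen. The genes and lists were chosen with earlier results of these data known. Positions came from GENCODE M21, promoters from RefSeq, which held Col1a2, Col3a1, Ogn and Slc6a13 among the 7.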

Additional observations from a re-analysis of the deposited data

How the results depend on the processing

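With each library left out in turn, 1 to 3 of the 7 genes met the criteria and 2 to 5 had groups that did not overlap, 5 of them without WAS replicate 2 or without control replicate 3. In those settings 1.73% to 5.41% of all genes met the criteria and 18.8% to 29.4% did not overlap, the last without WAS replicate 2, against 11.7% with all libraries. Without the 2 libraries low in choroid plexus genes, an alternative added after seeing the data, 1 met the criteria (1.71% of all genes) and 3 did not overlap (34.1%), and on quantile-normalized counts 1 did not overlap (Lum; 11.2%). The median log2 fold change of the 7 stayed between 0.29, without control replicate 2, and 0.66. Col1a2 ran from -0.0075 without control replicate 2 to 0.43 without control replicate 3, and was at -0.077 without the 2 libraries. Dcn met the criteria in all 13 alternatives, with log2 fold changes of 0.73 to 1.55. Slc6a13 lost the criteria in 6 of 13, Ogn met them in 2 and Lum in 1. Replicate numbers matched across the groups in the labels, but deviations of same-numbered samples correlated by 0.066, 0.085 and 0.087, so the numbers were not taken to pair the samples. With a replicate block, 3 of the 7 met the criteria (Dcn, Ogn and Slc6a13), Dcn had an adjusted p of 0.0201 (edgeR), and 417 genes met the criteria against 380. Genes at an adjusted p of 0.05 numbered 0 by edgeR, 22 by DESeq2, 49 with the block and 491 without WAS replicate 2, where 825 met the criteria. Lum rested on 6 to 20 reads a library. The causes were not tested.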
